A study of Mus musculus with 6 samples.

Results

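The genes described here encode the enzymes that oxidise branched-chain amino acids, ketone bodies and propionate, with a few enzymes of lysine, glutamate and proline oxidation, 30 genes among the 18193 genes that could be tested. The members were taken from a list of symbols, and each gene was read from 1 probe set, the one with the highest mean over the 6 arrays among those to which the platform annotation gives exactly 1 gene symbol. All 30 were found, 29 of them under the listed symbol and Mut under its current symbol Mmut, which the RefSeq gene table gives as the same gene. The rule uses symbols and no measured value, but the list was made with earlier results of these arrays known.

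The series profiled messenger RNA of the cardiac apex of transgenic mice with PR-M, a human mitochondrial progesterone receptor. Total RNA was hybridised to Affymetrix Mouse Genome 430 2.0 arrays. The labels give 3 arrays to a PR-M expressing group and 3 to a PR-M non-expressing group, and mice of both groups received 2.5 mg of progesterone in oil under the skin for 19 to 21 days. The comparison is therefore of PR-M expression under progesterone, with no array from untreated mice. The labels do not give the promoter, strain, age or sex of the mice, how expression of PR-M was established, or whether each array came from a separate animal, so p-values measure only the spread between these samples. Because whole tissue was assayed, fewer cells of a type and less RNA per cell cannot be told apart.

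The branched-chain amino acids leucine, isoleucine and valine first lose their amino group to a transaminase, and the resulting ketoacids are then decarboxylated by the branched-chain ketoacid dehydrogenase of the mitochondrion, the committed step, which a kinase switches off and a phosphatase switches on. Leucine ends as acetyl-CoA and acetoacetate, valine as propionyl-CoA and isoleucine as both acetyl-CoA and propionyl-CoA, and propionyl-CoA is turned into succinyl-CoA by a biotin-dependent carboxylase, an epimerase and a cobalamin-dependent mutase. Ketone bodies made by the liver enter heart mitochondria, where beta-hydroxybutyrate is oxidised to acetoacetate, activated with CoA and split into acetyl-CoA. All 3 routes feed the tricarboxylic acid cycle, and the heart is a known consumer of ketone bodies.

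None of the 30 genes passed the test between the groups at an adjusted p of 0.05 (limma, Benjamini-Hochberg over all 18193 genes), where 4 genes, or 0.0220% of all those tested, passed. At an unadjusted p under 0.05 there were 5 members, 2 higher in the expressing group (Ppm1k and Aldh6a1) and 3 lower (Mmab, Prodh and Acad8), which is 16.7% of the members against 12.6% of all genes. By direction these were 2 members against a background of 5.27% of all genes, and 3 members against 7.33%. The groups kept apart without overlap in the same 5 genes, while 19.0% of all genes had groups that did so, 8.16% with the expressing group higher and 10.8% with it lower. Neither share of the members stood clear of the background. Of the 30 differences 17 were positive, meaning higher in the expressing group, and 13 negative, with a median of 0.01 on the log2 scale and a range from -0.44 to 0.25, beside a median of -0.02 over all genes. The median is too near 0 to have a direction: it was -0.0003 after quantile normalization, 0.0018 after cyclic loess and 0.0005 without expressing replicate 1.

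The arrays did set bounds on the size of any difference. For 27 of the 30 genes the 95% interval of the log2 difference lay within 0.5 of 0, a 1.41-fold difference in either direction, as it did for 87.8% of all genes. The exceptions were Mmab, Prodh and Bdh1. The interval of Bdh1 ran from -1.36 to 0.84, by far the widest among the members. These intervals are not adjusted for the number of genes.

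**Figure D1:**
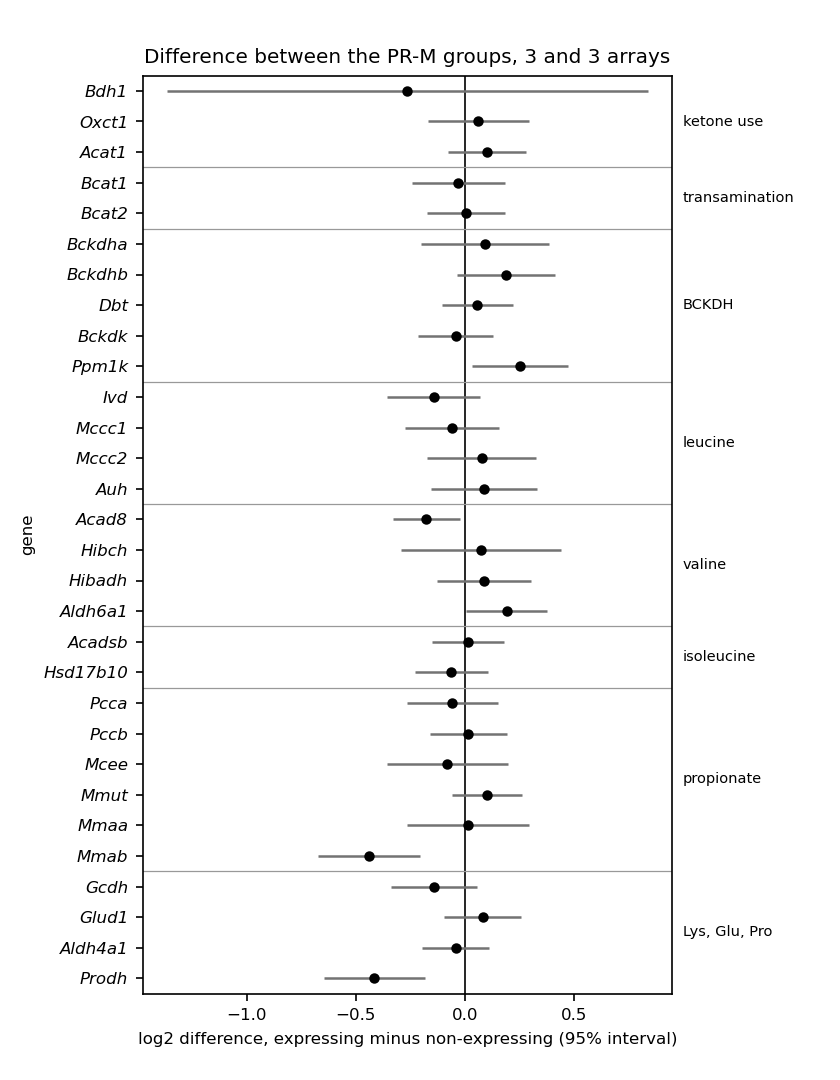
Log2 difference, expressing minus non-expressing, of the 30 genes (points) with the 95% interval of limma (lines; 3 and 3 arrays), ordered by pathway step. Only the intervals of Bdh1, Mmab and Prodh reach beyond 0.5 on either side, and no gene passed the adjusted test.

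The 6 ventricular muscle markers (Myl2, Myl3, Tnnt2, Tnni3, Actc1, Myh6) were bright in all arrays, with a log2 summed level from 17.10 to 17.14. The summed level of 5 atrial markers (Myl4, Myl7, Sln, Nppa, Bmp10), of which 4 were higher in the expressing group, was 11.3 to 13.2 in the expressing group and 9.33 to 11.0 in the other. All 5 fibroblast markers were higher in the expressing group as well, with summed levels of 14.28 to 14.42 against 14.03 to 14.17. The 18S ribosomal RNA controls averaged 8.31 ± 0.22 in the expressing group against 9.88 ± 0.38 (SD, n = 3 each). The 1 Schwann cell marker read of 3 listed, Mbp, was at 6.73 to 7.11 against 5.85 to 6.25, and the summed level of 4 skeletal muscle markers, all dim and all lower in the expressing group, at 6.31 to 6.35 against 6.40 to 6.54. The beta-actin controls at the 3′ end exceeded those at the 5′ end, a sign of RNA integrity and labelling, by 1.23 ± 0.05 in expressing and by 1.38 ± 0.07 in non-expressing arrays (SD, n = 3 each). For the Gapdh controls this excess was 0.17 ± 0.06 against 0.25 ± 0.07 (SD, n = 3 each), and the groups overlapped. Except for the ventricular level and the Gapdh controls, each of these levels parted the groups without overlap. Taken singly, Nppa, Bmp10, Col1a1, Col1a2, Myh4, Myh1 and Tnnt3 overlapped, and 19.0% of all genes parted the groups. The summed levels of the adipocyte, endothelial, smooth muscle, macrophage and leukocyte, and red blood cell markers also overlapped between the groups. The part of these levels in the differences below was not tested. Titles of the expressing samples have 1 prefix in common, while non-expressing replicate 1 has a prefix of its own and replicates 2 and 3 share another, so prefix and group cannot be told apart.

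In ketone body use Bdh1 had the widest spread between arrays of all 30 genes, and none of the 3 genes differed between the groups beyond the spread. Bdh1 encodes the dehydrogenase that oxidises beta-hydroxybutyrate to acetoacetate. Its log2 values were 9.58, 9.85 and 9.85 in the expressing arrays and 11.31, 9.56 and 9.20 in the non-expressing arrays. A single array, non-expressing replicate 1, stood far above the other 5, which lay within 9.20 to 9.85. It was 3.83-fold above the mean of the other 2 non-expressing arrays, a log2 difference of 1.94. The further Bdh1 probe set had the same pattern, with 9.05 in that array and 7.06 to 7.85 in the rest, a log2 difference of 1.97 from the mean of replicates 2 and 3.

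The difference of Bdh1 between the groups was -0.26 (SE 0.48, adjusted p 0.852 in limma), and it turned to 0.38 (adjusted p 0.244) without non-expressing replicate 1. In that fit all 3 expressing arrays lay above the 2 remaining non-expressing ones, though the lowest expressing array exceeded the highest of these by only 0.02. With array weights the difference was 0.20. The sign of Bdh1 therefore rested on 1 array.

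Oxct1 encodes the transferase that activates acetoacetate with CoA from succinyl-CoA, the step by which extrahepatic tissue uses ketone bodies. It read 13.19, 13.23 and 13.17 in expressing and 13.34, 13.06 and 12.99 in non-expressing arrays, so that the expressing values lay inside the span of the other group. The difference was 0.06 (SE 0.10, adjusted p 0.835). Of its 4 probe sets, 3 were higher by 0.32, 0.46 and 0.31 in non-expressing replicate 1 than in the mean of replicates 2 and 3, and the fourth by 0.14. Acat1, the thiolase that splits acetoacetyl-CoA and also ends isoleucine breakdown, read 12.34, 12.28 and 12.20 against 12.08, 12.19 and 12.25, and the groups overlapped. In Acat1 non-expressing replicate 1 was the lowest array, not the highest. Its difference was 0.10, and 1 of its 2 further probe sets differed by -0.05.

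**Figure D2:**
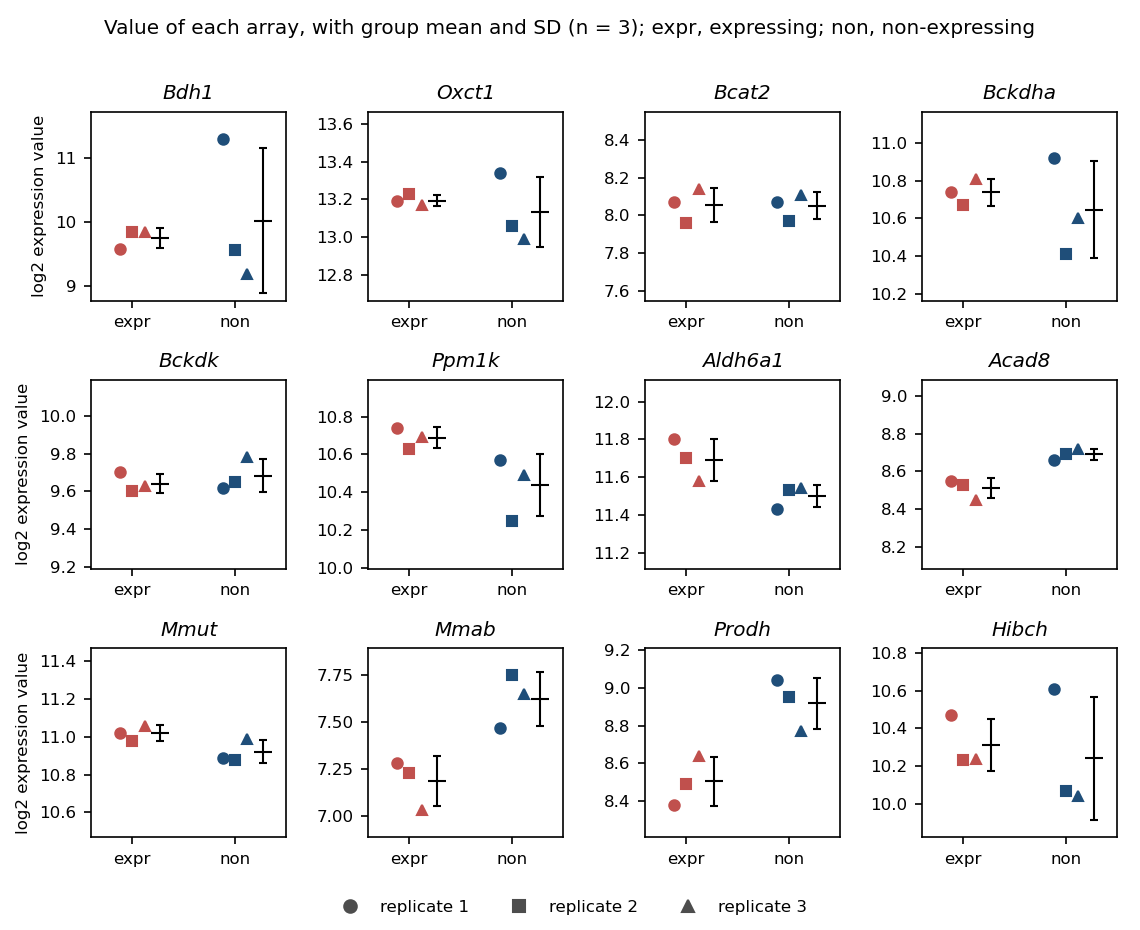
Log2 expression value of 12 member genes in each array (symbols, 1 per replicate), with the group mean and SD to the right of the points (n = 3 each); each panel has its own axis. Non-expressing replicate 1 stands at 11.31 in Bdh1 and is also the highest array in Oxct1, Bckdha, Hibch and Prodh. The groups do not overlap in Ppm1k, Aldh6a1, Acad8, Mmab and Prodh.

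The transaminases did not differ beyond the spread between arrays. Bcat2, the mitochondrial enzyme that serves most tissues, read 8.07, 7.96 and 8.14 in expressing and 8.07, 7.97 and 8.11 in non-expressing arrays, and these values were nearly superimposed. Its difference was 0.01 with a 95% interval from -0.17 to 0.18. The probe set of Bcat1, the cytosolic enzyme, read 5.77, 5.74 and 5.50 against 5.62, 5.78 and 5.70. That is at or below the array medians of 5.77 to 5.78, and its 2 further probe sets averaged 4.60 and 4.61, so these signals may be background and carry no level of the gene.

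Among the 5 genes of the branched-chain ketoacid dehydrogenase and its control 4 differences were positive and 1 negative, with a median of 0.09. Bckdha, for a subunit of the decarboxylase that takes the ketoacids, read 10.74, 10.67 and 10.81 in expressing and 10.92, 10.41 and 10.60 in non-expressing arrays. The non-expressing values spanned 0.51 and enclosed the expressing ones, and the difference was 0.09 (SE 0.13, adjusted p 0.799). Bckdhb, for the partner subunit, read 10.09, 9.98 and 9.97 against 9.97, 9.64 and 9.85, where only non-expressing replicate 1 reached the expressing range. The difference of Bckdhb was 0.19 (adjusted p 0.457). Dbt, for the transacylase core, was nearly flat, between 9.54 and 9.69 in all 6 arrays.

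The kinase and the phosphatase of the complex were read separately. Bckdk, whose product phosphorylates and inactivates the dehydrogenase, read 9.70, 9.60 and 9.63 in expressing and 9.62, 9.65 and 9.78 in non-expressing arrays. These overlapped, with a difference of -0.04 and a 95% interval from -0.22 to 0.13. Ppm1k, for the phosphatase that reactivates it, read 10.74, 10.63 and 10.69 against 10.57, 10.25 and 10.49. Every expressing array of Ppm1k lay above every non-expressing one, by 0.06 at the closest, which makes it 1.19-fold higher. Its log2 difference was 0.25 (SE 0.09, unadjusted p 0.030), which did not pass after adjustment (0.346). The further Ppm1k probe set also had groups that did not overlap, at 8.91, 9.01 and 9.07 against 8.89, 8.75 and 8.70, with a difference of 0.21 (adjusted p 0.371 over all probe sets). With 1 array left out the difference of Ppm1k stayed between 0.16 and 0.32, and the title prefix as a random block left no higher member at an unadjusted p under 0.05.

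The 4 genes of the later leucine steps were split, 2 higher and 2 lower, with a median of 0.01. Ivd encodes isovaleryl-CoA dehydrogenase. It read 10.61, 10.79 and 10.73 in expressing and 10.70, 10.93 and 10.94 in non-expressing arrays, where replicates 2 and 3 were the highest and replicate 1 was inside the expressing range. Its difference was -0.14 (adjusted p 0.547), while its further probe set differed by -0.01. Auh, the hydratase of methylglutaconyl-CoA, read 11.20, 11.04 and 11.16 against 11.26, 10.90 and 10.98 with a difference of 0.09 (adjusted p 0.768). Mccc1 and Mccc2, the subunits of methylcrotonyl-CoA carboxylase, differed by -0.06 and 0.07. In Auh, Mccc1 and Mccc2 alike non-expressing replicate 1 was the highest of the 6 arrays.

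Auh had the most discordant probe sets of any member. Of its 5 further probe sets 3 differed with the other sign, and one of them, at 5.41, 5.61 and 5.43 against 5.96, 5.95 and 5.85, had the lowest p of all 60 member probe sets (log2 -0.43, adjusted p 0.150 over all probe sets). It averaged 5.70, below the array medians, whereas the probe set that stands for the gene averaged 11.1. With the mean of all probe sets Auh differed by -0.07. Of all 30 further probe sets, which belong to 18 genes, 8 had the other sign, in Auh, Acat1, Mccc1, Hsd17b10, Pcca and Mmut. No member probe set passed the test over all 45037 probe sets, of which 6, or 0.0133%, did.

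The valine steps held 2 genes whose groups did not overlap, in opposite directions. Acad8, the isobutyryl-CoA dehydrogenase that starts the valine branch, read 8.55, 8.53 and 8.45 in expressing and 8.66, 8.69 and 8.72 in non-expressing arrays. The expressing arrays were all lower, by 0.11 at the closest. The difference was -0.18 (SE 0.07, adjusted p 0.345), and its further probe set differed by -0.10 with overlap. Aldh6a1 encodes the dehydrogenase that ends the branch by making propionyl-CoA from methylmalonate semialdehyde. It read 11.80, 11.70 and 11.58 against 11.43, 11.53 and 11.54, with a gap of 0.04 between the groups. The difference of Aldh6a1 was 0.19 (SE 0.08, adjusted p 0.387), a 1.14-fold difference in 1 probe set.

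Between them in the branch, Hibch, the hydrolase that frees hydroxyisobutyrate from CoA, read 10.47, 10.23 and 10.24 against 10.61, 10.07 and 10.04. Non-expressing replicate 1 was the highest array and replicates 2 and 3 the lowest, and the difference over all arrays was 0.07. Hibadh, which oxidises hydroxyisobutyrate, differed by 0.09 and had the same array highest. The isoleucine genes were flat. Acadsb, the dehydrogenase of branched short-chain acyl-CoA, read 9.74, 9.69 and 9.74 against 9.64, 9.71 and 9.79, and Hsd17b10, of a later oxidation, read 11.21, 11.30 and 11.33 against 11.40, 11.28 and 11.35. Their differences were 0.01 and -0.06, with groups that overlapped.

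Of the 6 propionate and cobalamin genes 3 had positive and 3 negative differences, with a median of -0.02, and Mmab stood apart from the other 5, which lay between -0.08 and 0.10. Pcca and Pccb, the subunits of propionyl-CoA carboxylase, differed by -0.06 and 0.01, and Mcee, the epimerase, by -0.08. Mmut, the cobalamin-dependent mutase that makes succinyl-CoA, read 11.02, 10.98 and 11.06 in expressing and 10.89, 10.88 and 10.99 in non-expressing arrays. These overlapped by a single array, non-expressing replicate 3, and the difference was 0.10 (adjusted p 0.577). A dimmer Mmut probe set differed by -0.20 and the third by 0.04. Mmaa, a chaperone of the mutase, differed by 0.01.

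Mmab encodes the adenosyltransferase that makes the cofactor of the mutase. Its probe set read 7.28, 7.23 and 7.03 in expressing and 7.47, 7.75 and 7.65 in non-expressing arrays. All expressing arrays were lower, by 0.19 at the closest, and non-expressing values were 1.36-fold the expressing ones. The log2 difference, -0.44 (SE 0.10, 95% interval -0.67 to -0.20), was the largest among the 30 genes and did not pass (adjusted p 0.201). The 4 Mmab probe sets were not uniform. A dim one, averaging 4.28, differed by -0.29 without overlap, and those averaging 7.10 and 6.77 differed by -0.06 and -0.003 with overlap. The difference of Mmab kept its sign whichever array was left out, between -0.52 and -0.36, with an adjusted p between 0.108 and 0.461.

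Of the lysine, glutamate and proline genes 3 were lower and 1 higher. Prodh encodes proline dehydrogenase, the first enzyme of proline oxidation in the mitochondrion. It read 8.38, 8.49 and 8.64 in expressing and 9.04, 8.95 and 8.77 in non-expressing arrays, so that all expressing arrays were lower, by 0.13 at the closest. The log2 difference was -0.42 (SE 0.10, 95% interval -0.64 to -0.19), and non-expressing values were 1.33-fold the expressing ones. It did not pass (adjusted p 0.217), and 1 probe set reads the gene. With 1 array left out the difference stayed between -0.49 and -0.35. The next enzyme of the same route, Aldh4a1, differed by -0.04 with overlap. Gcdh, of lysine oxidation, read 7.99, 7.90 and 7.90 against 8.22, 8.01 and 7.98 with a difference of -0.14 (adjusted p 0.513), and Glud1, glutamate dehydrogenase, differed by 0.08.

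In most members the non-expressing arrays spread more widely than the expressing ones. The SD was larger in the non-expressing than in the expressing group in 25 of the 30 genes, against 56.3% of all genes. Non-expressing replicate 1 was the highest of the 6 arrays in 14 members (23.7% of all genes) and non-expressing replicate 2 the lowest in 11 (16.8% of all genes). Replicate 1 exceeded the mean of replicates 2 and 3 by over 0.25, a 1.19-fold difference, in 11 members, where 11.7% of all genes did. It lay below that mean by over 0.25 in 0 members, where 10.4% of all genes did. Because 1 array stands against 2, these counts carry no test, and genes of 1 pathway are not independent.

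The 11 genes spanned ketone use (Bdh1 and Oxct1), the dehydrogenase (Bckdha), leucine (Mccc1, Mccc2 and Auh), valine (Hibch and Hibadh) and propionate (Pcca, Mcee and Mmaa). Behind Bdh1 the largest excess in that array was 0.56 in Hibch, 0.41 in Bckdha, 0.37 in Mmaa and 0.36 in Mcee. Nppa, the atrial natriuretic peptide gene, was at 10.74 in the same array and 8.39 in each of replicates 2 and 3. Its expressing values were 9.07, 11.27 and 10.24. The other atrial markers did not share this excess, as that array differed from the mean of replicates 2 and 3 by -0.57 in Myl4. The same difference was 0.22 in Myl7, -0.06 in Sln and -0.05 in Bmp10. The macrophage marker Cd68 was at 8.82 in that array against 7.13 and 6.86 in replicates 2 and 3. The expressing values of Cd68 were 8.53, 7.56 and 7.36. That array differed from the mean of replicates 2 and 3 by 0.34 in Csf1r, 0.32 in Ptprc and -0.09 in Cd3e. Ptprc was highest in expressing replicate 1. The 4 macrophage and leukocyte markers had a summed level of 11.5 in non-expressing replicate 1, against 11.1 in each of replicates 2 and 3. The expressing arrays had 11.2 to 11.4. The 18S control was at 10.3, the highest of all arrays. The part of these levels in the excess was not tested, and this array also has its own title prefix.

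**Figure D3:**
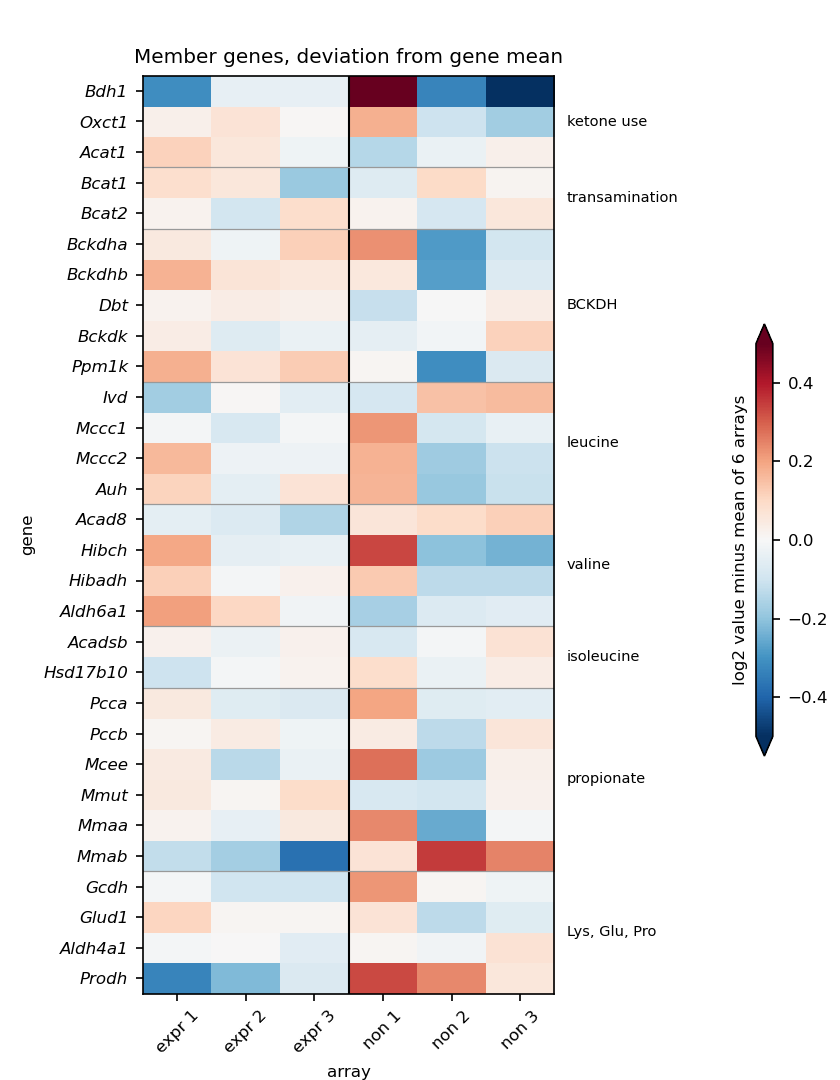
Log2 value minus the gene's mean over the 6 arrays, for the 30 genes (rows, by pathway step) in the expressing (expr 1 to 3) and non-expressing arrays (non 1 to 3); the colour scale ends at 0.5, which Bdh1 exceeds. Non-expressing replicate 1 is the highest array in 14 genes and replicate 2 the lowest in 11.

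Leaving out that array shifted several members, and still no member passed. Without non-expressing replicate 1, 20 members had positive and 10 negative differences, and 12 had an unadjusted p under 0.05, against 16.0% of all genes in the same fit. Of these 8 were higher in the expressing group (7.05% of all genes) and 4 lower (8.97% of all genes). The 8 were Bdh1, Oxct1, Bckdha, Bckdhb, Ppm1k, Auh, Hibch and Hibadh, with differences from 0.17 to 0.38. The 4 were Ivd, Acad8, Mmab and Prodh. None passed after adjustment, and the lowest adjusted p was 0.108, for Mmab, where 11 genes, or 0.0605% of all, passed. Non-expressing replicate 1 was the highest array in 14 members, so leaving it out raises their differences by construction and tends to narrow their spread. The counts of this fit therefore carry no test. The median of the members was 0.04 without that array and -0.03 without non-expressing replicate 2. Which way the members leaned thus depended on the array left out.

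**Figure D4:**
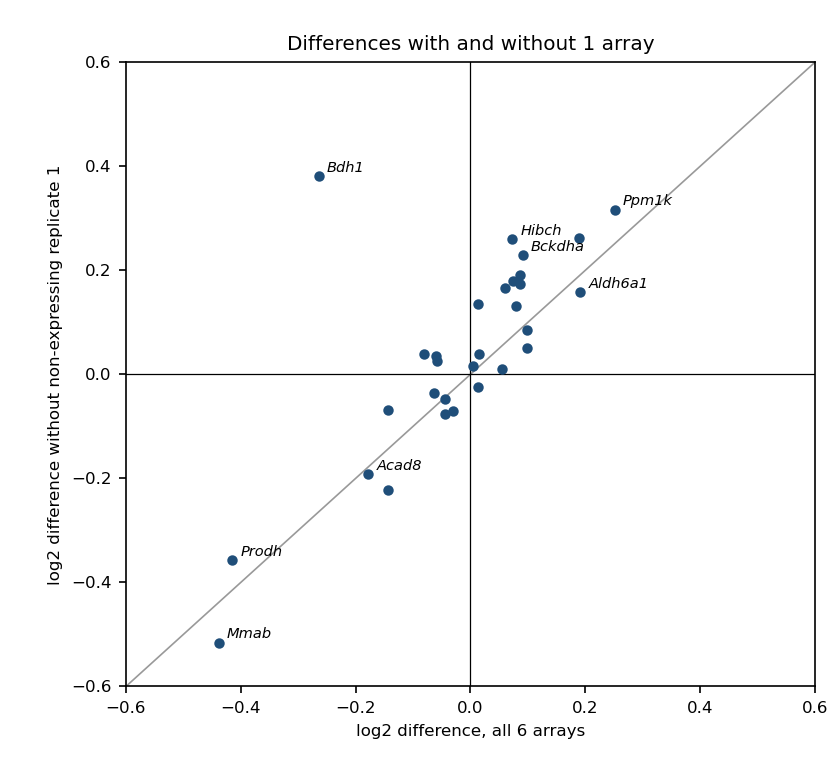
Log2 difference, expressing minus non-expressing, of the 30 genes with all 6 arrays (horizontal axis) and without non-expressing replicate 1 (vertical axis); the grey line marks equal values. Bdh1 moves from -0.26 to 0.38 and Hibch from 0.07 to 0.26, while Mmab and Prodh stay below -0.3.

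Genes around these pathways were read from further lists. Of the 10 genes of transport and regulation 7 were higher and 3 lower in the expressing group, with a median of 0.09, and 0 passed in limma, with 2 (20.0%) at an unadjusted p under 0.05 against 12.6% of all genes. These were the monocarboxylate transporters that carry ketone bodies, lactate and pyruvate across the cell membrane. Slc16a1 read 11.90, 11.94 and 11.88 in expressing and 11.64, 11.69 and 11.59 in non-expressing arrays, and Slc16a7 read 6.21, 6.07 and 6.12 against 5.79, 5.65 and 5.80. In both genes all expressing arrays were higher. These 2 of the 10 genes (20.0%) were the only ones without overlap, where 19.0% of all genes had none, 8.16% in this direction. The differences were 0.27 for Slc16a1 (SE 0.07, adjusted p 0.226) and 0.39 for Slc16a7 (SE 0.08, adjusted p 0.179), and the non-expressing values of Slc16a7 lay near the array medians. Klf15, a transcription factor known to drive branched-chain amino acid breakdown, differed by -0.22 (adjusted p 0.649). Slc25a44, the mitochondrial carrier of these amino acids, differed by 0.18 (adjusted p 0.613). The groups overlapped in both genes. Expressing replicates 1 and 3 were the lowest and the highest array in Klf15, and the highest and the lowest in Slc25a44.

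The 9 enzymes shared with beta-oxidation and the tricarboxylic acid cycle all had positive differences, with a median of 0.17, while 44.0% of all genes were positive. None passed in limma, with 2 (22.2%) at an unadjusted p under 0.05, against the same 12.6%. The groups did not overlap in 3 (33.3%), Acads, Suclg1 and Sucla2, against 19.0% of all genes, 8.16% in this direction. In lists this short 1 gene moves the share widely. Suclg1, a subunit of the succinyl-CoA ligase that takes up the product of the propionate route, read 12.60, 12.51 and 12.54 against 12.44, 12.25 and 12.25, without overlap (difference 0.24, adjusted p 0.318). Dld, the lipoamide dehydrogenase that the branched-chain complex shares with other ketoacid dehydrogenases, read 11.37, 11.10 and 11.18 against 11.15, 10.68 and 10.78 (difference 0.35, adjusted p 0.346), where only non-expressing replicate 1 reached the expressing range.

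Of 10 genes of cobalamin and biotin supply 5 were higher and 5 lower, with a median of -0.003 and 0 passing in limma, none of them at an unadjusted p under 0.05. The lowest p belonged to Cd320, the cobalamin uptake receptor, which was lower without overlap (difference -0.18, adjusted p 0.407), and to Btd, biotinidase (difference -0.23, adjusted p 0.443). Cd320 was the only gene of the 10 (10.0%) without overlap, against 19.0% of all genes. Of the 12 listed genes of other amino acid oxidation 10 were read, 6 higher and 4 lower with a median of 0.05. None passed in limma and 2 (20.0%, against 12.6% of all genes) had an unadjusted p under 0.05, Aadat (difference -0.27, adjusted p 0.310), at 4.58 to 5.04 in all arrays and so below the array medians, and the alanine transaminase gene Gpt2 (difference -0.24, adjusted p 0.391). Of the 5 listed genes of ketone body synthesis 2 were read. Bdh2, at 4.62 to 4.86 in all arrays and so below the array medians, differed by -0.04 (adjusted p 0.872). Hmgcs1, the cytosolic synthase of the cholesterol route, differed by 0.05 (adjusted p 0.817). The other listed genes were not analysed here.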

How the data were processed

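Total RNA (500 ng) was amplified, labelled with biotin and hybridised, 1 array per sample, per the labels' protocols. The deposited table holds log2 expression values for each probe set in each array, a scale inferred from their range. The submitters' processing notes name RMA and Partek 6.6, with no role or order, and their settings are not given there. The scaling between arrays that such values carry removes any shift common to all genes. The number of arrays, 3 in each group, limits the precision.

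Of 45101 probe sets 64 controls were left out, and 34945 of the other 45037 have 1 gene symbol, giving 18193 genes. Groups were compared in R 4.3.3 with limma 3.58.1 (two-sided moderated test, Benjamini-Hochberg adjustment, threshold 0.05) over all genes and over all probe sets. In 3 simulated data sets on 18193 genes, 200 genes each were shifted by 0.25, 0.5, 1 or 2 (log2). The noise was normal and independent between genes, with SDs shuffled among genes. This comparison called 1.33% of genes shifted by 0.25, 47.3% at a shift of 0.5 and 90.7% at 1. So many changed genes make the adjusted threshold easier to pass than in these arrays, where 4 genes passed. The simulated shares may thus be too high here, and differences as small as those of most members would usually be missed. The members and lists were chosen with earlier results of these data known. Values of each array are given for the 2 members of each step with the lowest p and for Bdh1, Oxct1, Bcat2, Bckdha, Bckdk and Mmut. From other lists the 2 genes with the lowest p are named. Klf15, Slc25a44, Hibch, Nppa and Cd68 were named after their values were seen. Alternatives covered scaling, dim probe sets, the choice of probe set, the variance prior, weights on arrays, a random block for the title prefix (consensus correlation 0.165) and leaving out each array.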

Additional observations from a re-analysis of the deposited data

How the results depend on the processing

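No member gene and no member probe set passed under any alternative tried, and the lowest adjusted p of a member gene ranged from 0.0788 (Mmab, with array weights) to 0.467 (Mmab, with a random block for the title prefix). Members at an unadjusted p under 0.05 numbered 5 with all arrays (12.6% of all genes), 2 with the random block (8.18% of all genes), 7 with array weights (17.5%) and 12 without non-expressing replicate 1 (16.0%). They numbered 2 without non-expressing replicate 2 (9.43%) and 3 without any other single array (9.22% to 10.8%). The share of all genes moved the same way, though without non-expressing replicate 1 it rose much less than the number of members did. With 1 array left out the median of the members lay between -0.03 and 0.04, and 13 of the 30 genes changed sign at least once. The number of genes passing among all 18193 was 4, and 12 with the prior variance estimated over all probe sets (chosen after seeing the data), 26 with array weights, 21 with the most variable probe set of each gene, 17 with an intensity trend and robust prior, and 19 of 11963 without dim probe sets. It was 1 with ordinary statistics or the mean of all probe sets and 2 of 17903 without _x_at and _s_at probe sets. Without expressing replicates 1, 2 and 3 in turn it was 9, 6 and 2, and without non-expressing replicates 1, 2 and 3 it was 11, 0 and 2. No paired analysis was possible because the numbers in the sample titles of the groups have only 1 in common, under different prefixes, and the replicate numbers used here follow the order of the records.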
